A study of Mus musculus with 18 samples.

Results

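Adrenomedullin and the parts of its receptor were followed as 6 genes of the 55335 counted: Adm, Calcrl, Ramp1, Ramp2, Ramp3 and Ackr3. Adm was chosen because its level was higher with FGF2 and lower after the knockdown in these same libraries, so its values in those contrasts are a description and carry no test. The other 5 genes were taken for their known part in receptors of this peptide family or in removal of the peptide, and were tested. They were chosen with earlier results of these data known. The data are 18 RNA-seq libraries of O9-1 cells, an established mouse cranial neural crest line that the labels call wildtype, cultured in osteoblast differentiation medium for 2.5 or 5 days. The control siRNA siCtrl was given without FGF2 in the Ctrl+vehicle group and with FGF2 in the Ctrl+FGF2 group. The group Y/T dKD+FGF2, here dKD, received FGF2 together with siY/T, the siRNA against Yap1 and Wwtr1 (Yap and Taz). Each of the 6 groups held 3 libraries. No vehicle group was given the knockdown, so the knockdown could be read only under FGF2. All libraries come from 1 line, and nothing in the labels says whether replicates were separate cultures, so p-values measure the spread between these libraries.

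Adrenomedullin is a secreted peptide best known for widening vessels and for keeping blood and lymphatic vessels intact. It signals mainly through Gs and cAMP. Its receptor is a dimer of Calcrl, a class B G protein-coupled receptor, with a receptor activity-modifying protein: pairing with Ramp2 or Ramp3 makes an adrenomedullin receptor, while pairing with Ramp1 makes the receptor for calcitonin gene-related peptide. Ackr3, an atypical chemokine receptor, takes up Cxcl12 and can also bind and remove adrenomedullin.

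The libraries held 10377151 to 14698525 gene counts. Replicates of a group differed beyond counting noise, with a chi-square per degree of freedom of 1.25 to 6.41 between libraries, the highest between Ctrl+vehicle replicates 1 and 2 of d5. Levels are given in CPM, the counts of a gene relative to its library's total, with totals scaled by TMM over all 18 libraries. Of the siRNA targets, Yap1 RNA after the knockdown stood at 51.9% of its Ctrl+FGF2 mean at d2.5 and 46.2% at d5 (log2 fold change −0.96, SE 0.042 and −1.12, SE 0.051; edgeR adjusted p = 9.7e-17 and 3.6e-11), and Wwtr1 RNA at 61.2% and 57.7% (−0.72, SE 0.036 and −0.80, SE 0.038; edgeR adjusted p = 2.6e-15 and 4.9e-11). Of 13 neural crest markers, Sox10 and Foxd3 were at 0 in all libraries, and the summed level of the list was 596 to 1031 CPM. Of 14 endothelial markers, Cdh5, Tie1, Flt4 and Cldn5 were at 0 in all libraries and 9 or 10 had no more than 3 counts in each group. The summed endothelial level of 99.5 to 159 CPM was nearly all Flt1, a VEGF receptor, at 96.5 to 154 CPM. That sum was 149 to 159 CPM in Ctrl+FGF2 and 99.5 to 103 CPM in dKD at d5. The summed level of 6 smooth muscle markers was 264 to 363 CPM in Ctrl+vehicle, 80.1 to 88.7 CPM in Ctrl+FGF2 and 66.2 to 75.8 CPM in dKD at d2.5, and 2389 to 3656 CPM at d5. At d2.5 the sum of 7 osteoblast markers was 17153 to 17495 CPM in Ctrl+vehicle, 9155 to 9380 CPM in Ctrl+FGF2 and 10760 to 11177 CPM in dKD. At d5 it was 32311 to 34530, 17824 to 19211 and 24456 to 26114 CPM in the same order. The 7 osteoblast markers did not all go one way: at d5 with FGF2, 3 rose and 4 fell, where 47.2% of all genes tested were called. These marker sums thus moved with the treatments and with the day, as did the genes described here. Lyz2 and Cd3e of the 7 leukocyte markers were at 0 (sum 0.911 to 5.50 CPM). The part of these markers in the results was not tested. In bulk samples, fewer cells that express a gene and less RNA per cell cannot be told apart.

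Per kb of exon, which allows genes to be compared, Ackr3 was the highest of the 6 in every group, at 10.4 to 20.9 CPM per kb. The other places changed with time. At d2.5 with FGF2, Ramp3 followed at 10.9 ± 0.654 CPM per kb (SD, n = 3), then Adm at 5.99 ± 0.353 and Calcrl at 5.74 ± 0.488, a pair that did not differ beyond its spread. At d5 with FGF2, Adm was at 8.59 ± 0.773 CPM per kb and Ramp1 at 4.33 ± 0.629, while Ramp3, Calcrl and Ramp2 were all below 1 CPM per kb.

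The upstream sequences of Adm and Ramp3 are shown because both genes were higher with FGF2 at d2.5 while their values after the knockdown lay far apart. They come from RefSeq on GRCm38.p6, read along the gene and ending before the first base of either the RefSeq or the GENCODE transcript, chr7:110627407-110627656 on the plus strand for Adm and chr11:6658283-6658520 on the plus strand for Ramp3. Capitals mark matches, on either strand, to a set of short motifs. These were GGAATG, the TEAD core, then TGANTCA, bound by AP-1, and the hypoxia response core, searched as ACGTG or as the variant GCGTG. Also searched were TGACG, the short cAMP response site, then CCGGAA, the ETS core, and TATAAA, the TATA box.
Adm: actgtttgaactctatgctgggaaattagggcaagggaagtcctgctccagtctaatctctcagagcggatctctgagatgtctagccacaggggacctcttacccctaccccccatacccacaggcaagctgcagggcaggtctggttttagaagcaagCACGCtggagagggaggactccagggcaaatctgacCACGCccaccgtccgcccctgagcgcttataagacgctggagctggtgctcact
Ramp3: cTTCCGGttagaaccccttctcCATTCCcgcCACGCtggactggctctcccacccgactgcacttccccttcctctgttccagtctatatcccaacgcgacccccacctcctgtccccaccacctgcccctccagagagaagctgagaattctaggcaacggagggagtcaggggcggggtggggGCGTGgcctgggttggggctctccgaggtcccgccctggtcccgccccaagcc
The Adm window held GCGTG at 2 places on the minus strand, starting 90 and 54 bases before the RefSeq start, and no match to the TEAD core. The Ramp3 window held the TEAD core on the minus strand, starting 228 bases before the start, the ETS core, and GCGTG at 2 places. Of 32851 RefSeq windows of 250 bases, 12.6% held the TEAD core, 28.2% held GCGTG and 12.03% held the ETS core. Calcrl and Ackr3 were also higher with FGF2 at d2.5 and stood at 92.9% and 89.3% of that level after the knockdown, beside 82.3% for Ramp3. Their windows, searched in the same way but not shown, held no TEAD core. No factor binding was measured in these libraries.

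Adm (ENSMUSG00000030790.15), which encodes the peptide precursor, lies on GRCm38 chromosome 7 from 110627661 to 110629820 on the plus strand. At d2.5 its level was 2.90, 2.001 and 1.93 CPM in Ctrl+vehicle, 9.44, 9.32 and 10.4 CPM in Ctrl+FGF2, and 3.395, 3.42 and 3.63 CPM in dKD. The 3 groups did not overlap, and the knockdown libraries lay closer to vehicle than to FGF2. Over all genes tested at d2.5, libraries did not overlap for 70.5% with FGF2, 39.4% with the knockdown and 71.1% for dKD against vehicle. Non-overlap was thus common, here and for the genes below. The fitted log2 fold change was 2.07 (SE 0.15) for FGF2 and −1.49 (SE 0.14) for the knockdown, a 4.21-fold and a 2.80-fold difference. After the knockdown Adm stood at 35.9% of its FGF2 level and 1.53-fold above vehicle by the means.

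At d5 Adm was at 8.95, 8.75 and 10.1 CPM in Ctrl+vehicle, 14.1, 15.1 and 12.6 CPM in Ctrl+FGF2, and 8.34, 7.64 and 5.60 CPM in dKD. Again the groups did not overlap, but all knockdown libraries now lay below all vehicle libraries. At d5 the shares of all genes without overlap were 54.5%, 45% and 51.9% for the same comparisons, in the same order. The log2 fold change was 0.60 (SE 0.13) for FGF2, −0.94 (SE 0.13) for the knockdown and −0.35 (SE 0.14) for knockdown with FGF2 against vehicle. The FGF2 difference was smaller at d5 than at d2.5 by 1.499 on the log2 scale (SE 0.20). In the order of the 6 groups, only Ctrl+FGF2 at d2.5 and Ctrl+vehicle at d5 overlapped as neighbours.

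The contrast of days was not the one that chose Adm, but it uses the same libraries. A gene chosen for a low Ctrl+vehicle and a high Ctrl+FGF2 level at d2.5 is tilted toward a larger rise in vehicle. The tests of Adm over time thus support nothing on their own. From d2.5 to d5 Adm rose in Ctrl+vehicle by 2.02 on the log2 scale (SE 0.16, edgeR adjusted p = 4.5e-12), in dKD by 1.06 (SE 0.16, adjusted p = 8.1e-07) and in Ctrl+FGF2 by 0.52 (SE 0.11, adjusted p = 0.00011). Vehicle cells thus reached at d5 about the level that FGF2-treated cells had at d2.5. The labels name the day as the batch, so time and batch cannot be told apart in any comparison of days.

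**Figure D1:**
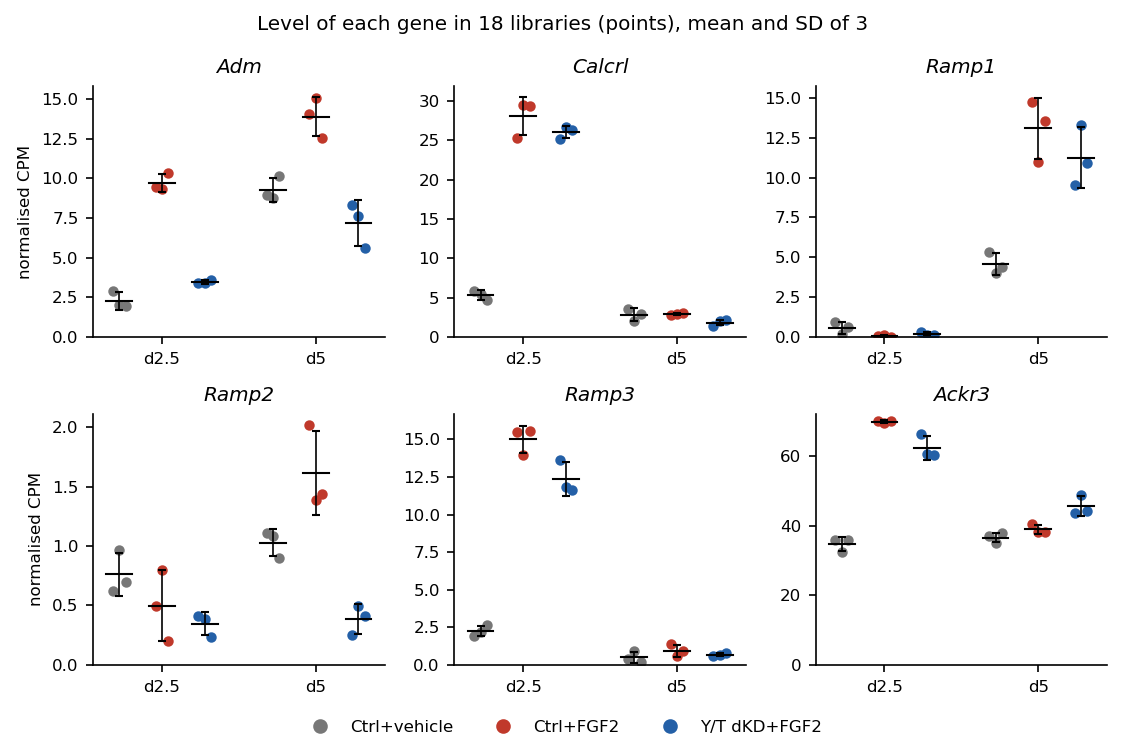
Level of the 6 genes in normalised CPM (vertical axes, each from 0) in the 18 libraries, by day and group; points are libraries, long lines the mean and bars the SD of 3. Adm was highest in Ctrl+FGF2 on both days (9.71 and 13.9 CPM), Calcrl and Ramp3 were high at d2.5 with FGF2 and low at d5, and Ramp1 was near 0 at d2.5 and up to 14.7 CPM at d5.

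FGF2 raised the receptor genes that could be tested at d2.5. The 3 that passed the filter on low counts, Calcrl, Ramp3 and Ackr3, all rose, in a contrast in which 67.6% of the 13677 genes tested were called at an adjusted p under 0.05. Their median log2 fold change was 2.37, beside 0.00 over all genes tested. Ramp1 and Ramp2 were filtered out.

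Calcrl (ENSMUSG00000059588.13, chromosome 2, 84330626 to 84425411, minus strand) encodes the receptor itself. At d2.5 it was at 5.87, 5.49 and 4.71 CPM in Ctrl+vehicle and at 25.3, 29.5 and 29.3 CPM in Ctrl+FGF2. The lowest FGF2 library was thus far above the highest vehicle library, and the log2 fold change was 2.37 (SE 0.098, edgeR adjusted p = 1.3e-19). Under the knockdown it was at 25.2, 26.7 and 26.3 CPM, overlapping Ctrl+FGF2, with a log2 fold change of −0.11 (95% interval −0.26 to 0.03, adjusted p = 0.28). The knockdown cells still stood above vehicle by 2.25 on the log2 scale (SE 0.10, edgeR adjusted p = 9.7e-19).

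Ramp3 (ENSMUSG00000041046.7, chromosome 11, 6658521 to 6677475, plus strand) encodes the modifying protein that gives Calcrl affinity for adrenomedullin. At d2.5 its level was 1.93, 2.19 and 2.63 CPM in Ctrl+vehicle, 15.5, 13.97 and 15.6 CPM in Ctrl+FGF2, and 13.7, 11.8 and 11.6 CPM in dKD. It rose with FGF2 by 2.73 on the log2 scale (SE 0.13, edgeR adjusted p = 1.2e-17) and fell with the knockdown by 0.29 (SE 0.097, adjusted p = 0.027), to 82.3% of its FGF2 level. The second call was weak: it was lost in DESeq2 (adjusted p = 0.15), with unstranded counts, in a fit of all 18 libraries, and without Ctrl+FGF2 replicate 1 or 3 or dKD replicate 2 or 3 (adjusted p 0.082 to 0.12). The predicted gene Gm11978 overlaps Ramp3 on the other strand, and Ramp3 held 1277 counts with strand and 1170 without.

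Ackr3 (ENSMUSG00000044337.5, chromosome 1, 90203980 to 90216751, plus strand), the scavenging receptor, had the highest counts of the 6. At d2.5 it was at 36.0, 32.3 and 35.9 CPM in Ctrl+vehicle, 70.2, 69.6 and 70.2 CPM in Ctrl+FGF2, and 66.5, 60.5 and 60.5 CPM in dKD. It rose 2.003-fold with FGF2 (log2 fold change 1.00, SE 0.053, edgeR adjusted p = 6.0e-17) and fell 1.13-fold with the knockdown (log2 fold change −0.17, SE 0.049, adjusted p = 0.0093). The knockdown call was lost in DESeq2 (adjusted p = 0.055) and without dKD replicate 3 (adjusted p = 0.061). In all, 2 of the 3 tested receptor genes passed for the knockdown at d2.5, in a contrast with 24.5% of all genes called. Against vehicle, all 3 were higher in dKD, by 2.25, 2.44 and 0.83 on the log2 scale for Calcrl, Ramp3 and Ackr3, in a contrast with 69.8% of genes called.

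Ramp1 and Ramp2 had few counts at d2.5. Ramp1 held 14, 3 and 8 counts in the Ctrl+vehicle libraries, 1, 2 and 0 in Ctrl+FGF2 and 4, 2 and 2 in dKD. Summed over libraries, its CPM was 8.33-fold lower with FGF2 (95% counting interval 2.54 to 43.1). Ramp2 held 9, 15 and 9 counts in Ctrl+vehicle, 7, 11 and 3 in Ctrl+FGF2 and 5, 5 and 3 in dKD, and its ratio of vehicle to FGF2 of 1.57 (0.882 to 2.86) did not exclude equal levels. Intervals of this kind cover counting error only.

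**Figure D2:**
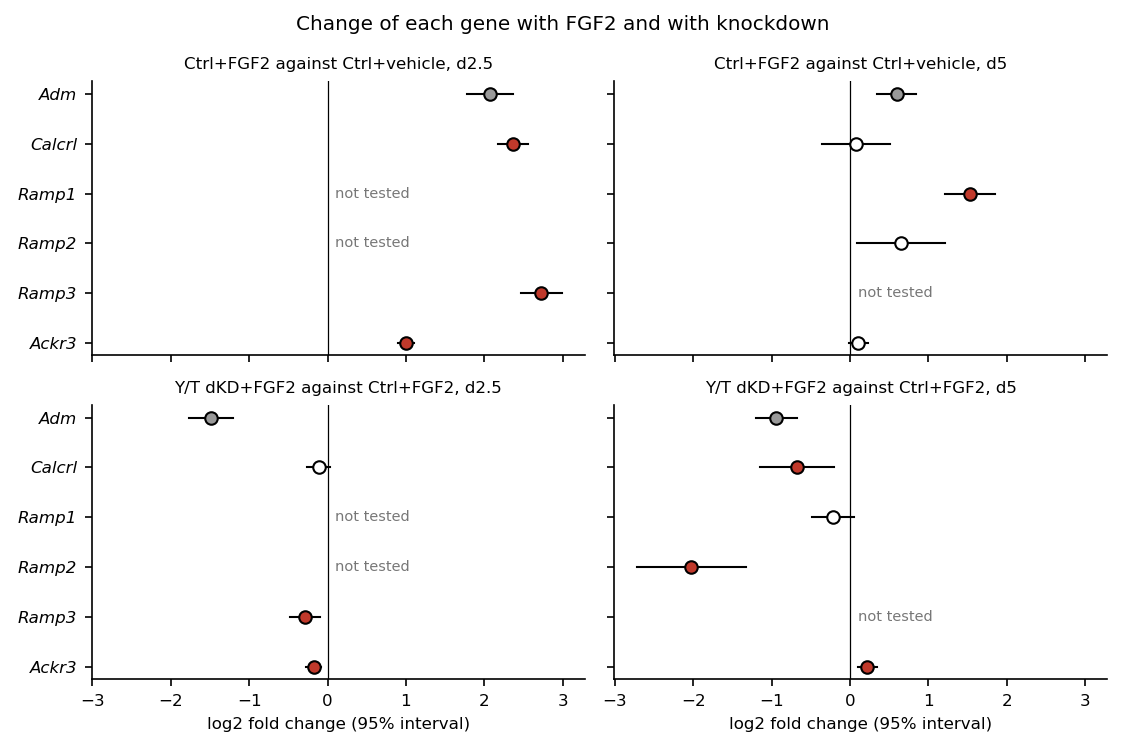
Fitted log2 fold change of each gene (horizontal axis, with approximate 95% intervals) for Ctrl+FGF2 against Ctrl+vehicle (top) and dKD against Ctrl+FGF2 (bottom) at d2.5 (left) and d5 (right). Red points passed an adjusted p under 0.05, white points did not, and grey marks Adm, which was chosen by these contrasts; Adm lay at −1.49 for the knockdown at d2.5 while Calcrl lay at −0.11.

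At d5 another receptor gene responded to FGF2. Of the 4 receptor genes that passed the filter, Ramp1 alone was called, in a contrast with 47.2% of 13304 genes called. Ramp1 (ENSMUSG00000034353.14, chromosome 1, 91179822 to 91225196, plus strand) was at 5.33, 3.9998 and 4.40 CPM in Ctrl+vehicle, 14.7, 10.99 and 13.6 CPM in Ctrl+FGF2, and 9.53, 13.3 and 10.9 CPM in dKD. Every FGF2 library was above every vehicle library, and Ramp1 rose 2.89-fold (log2 fold change 1.53, SE 0.16, edgeR adjusted p = 5.9e-07). For the knockdown its log2 fold change was −0.22 (95% interval −0.49 to 0.05, adjusted p = 0.25), and dKD stayed above vehicle by 1.32 (SE 0.17, adjusted p = 5.6e-06).

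Calcrl and Ackr3, which had risen at d2.5, were not called for FGF2 at d5. Calcrl was at 3.62, 1.9999 and 2.96 CPM in Ctrl+vehicle and at 2.85, 2.93 and 3.05 CPM in Ctrl+FGF2, with overlapping libraries (log2 fold change 0.08, 95% interval −0.36 to 0.51, edgeR adjusted p = 0.80). Without Ctrl+vehicle replicate 2, the lowest of these, the sign turned (−0.14). Ackr3 was at 37.0, 35.1 and 37.8 CPM in Ctrl+vehicle and 40.5, 38.4 and 38.2 CPM in Ctrl+FGF2 (log2 fold change 0.10, 95% interval −0.02 to 0.23, adjusted p = 0.18). Both intervals lie below the rises of 2.37 and 1.00 at d2.5.

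Ramp2 (ENSMUSG00000001240.13, chromosome 11, 101246028 to 101259546, plus strand) encodes the partner that makes the main vascular adrenomedullin receptor. It had 1.11, 1.08 and 0.898 CPM in Ctrl+vehicle, 2.02, 1.38 and 1.44 CPM in Ctrl+FGF2, and 0.255, 0.498 and 0.407 CPM in dKD at d5. The 3 groups did not overlap, but they rest on 34, 55 and 13 counts in all. The FGF2 difference missed the threshold (log2 fold change 0.65, SE 0.28, edgeR adjusted p = 0.070), while the knockdown lowered Ramp2 by 2.03 on the log2 scale (SE 0.35, adjusted p = 0.00025), to 23.97% of its FGF2 level. Its dKD libraries held 3, 6 and 4 counts, too few for the filter, which Ramp2 passed through Ctrl+FGF2, its highest group. The passing of this knockdown test thus supports nothing on its own. The ratio of the summed counts was 4.15 (95% counting interval 2.24 to 8.27). Flt1, which makes up nearly all of the endothelial marker sum, also fell with the knockdown at d5 (−0.61, SE 0.046, adjusted p = 1.5e-08), and its part in the Ramp2 value was not tested. Ramp2 overlaps Vps25 on the same strand, so its counts are uncertain.

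The knockdown at d5 thus called 3 of the 4 tested receptor genes, where 31.7% of all genes were called. Ramp2, which passed the filter through Ctrl+FGF2, and Calcrl fell, and Ackr3 rose. Calcrl was at 1.45, 1.99 and 2.14 CPM in dKD, below all 3 Ctrl+FGF2 libraries (log2 fold change −0.68, SE 0.24, edgeR adjusted p = 0.040), a call that was lost in DESeq2 (adjusted p = 0.17) and without any one of 7 libraries, among them each Ctrl+FGF2 and each dKD library (adjusted p 0.053 to 0.17). Ackr3 was at 43.8, 48.9 and 44.2 CPM, above all Ctrl+FGF2 libraries (log2 fold change 0.22, SE 0.060, adjusted p = 0.0083), and missed the threshold without dKD replicate 2 (adjusted p = 0.074). Ramp3, untested at d5, held 4, 11 and 2 counts in Ctrl+vehicle, 15, 7 and 10 in Ctrl+FGF2 and 7, 8 and 8 in dKD.

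Against vehicle at d5, with 41.8% of genes called, dKD cells had higher Ramp1 and Ackr3 (log2 fold change 0.33, SE 0.061, edgeR adjusted p = 0.00031) and lower Ramp2 (−1.38, SE 0.40, adjusted p = 0.0093). The Ramp2 call was lost in DESeq2 (adjusted p = 0.063) and without dKD replicate 1 (adjusted p = 0.050). Calcrl had a log2 fold change of −0.60 (SE 0.24) with an adjusted p of 0.058, which passed in a fit of all 18 libraries (adjusted p = 0.039). The comparisons within a day share their Ctrl+FGF2 or Ctrl+vehicle libraries and are not independent of one another.

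Over time the Ramp genes changed places. Ramp1 and Ramp3 each had too few counts for the filter on one of the days and entered the fit of all 18 libraries through the day on which they were high, so their tests over time follow in part from the filter. Ramp1 was higher at d5 than at d2.5 in all 3 treatments, by 2.94 on the log2 scale in Ctrl+vehicle (SE 0.31, edgeR adjusted p = 1.8e-09), by 7.35 in Ctrl+FGF2 (SE 0.36, adjusted p = 1.2e-17) and by 5.66 in dKD (SE 0.32, adjusted p = 5.6e-16). The value in Ctrl+FGF2 rests on 3 counts at d2.5 against 446 at d5, a ratio of 186 with a counting interval of 63.2 to 905. Ramp3 went the other way and was lower at d5, with summed counts of 96, 645 and 464 at d2.5 against 17, 32 and 23 at d5 in Ctrl+vehicle, Ctrl+FGF2 and dKD. Its level fell by 2.10, 3.99 and 4.15 on the log2 scale in the same order (SE 0.34, 0.20 and 0.22, adjusted p = 3.9e-06, 1.2e-17 and 1.2e-16). The value in Ctrl+vehicle was −2.93 without replicate 2 of d5, which holds 11 of the 17 counts.

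The share of each gene in the summed level of the 3 Ramp genes per exon length shows this within every library. Ramp3 made up 73.4% to 82.1% in Ctrl+vehicle and 97.2% to 99.5% in both FGF2 groups at d2.5. At d5 its share was 7.004% to 28.7%, while that of Ramp1 was 57.1% to 87.4%. Ramp2 held 0.535% to 15.1% in any library, and at d5 its mean share was 2.66% ± 0.478 (SD, n = 3) in dKD, 8.88% ± 0.930 in Ctrl+FGF2 and 14.3% ± 0.323 in Ctrl+vehicle. The exon length of Ramp2 spans 8 annotated transcripts and the Vps25 overlap, so its share is the least certain. RNA shares do not show which receptor dimers were present on the cells.

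**Figure D3:**
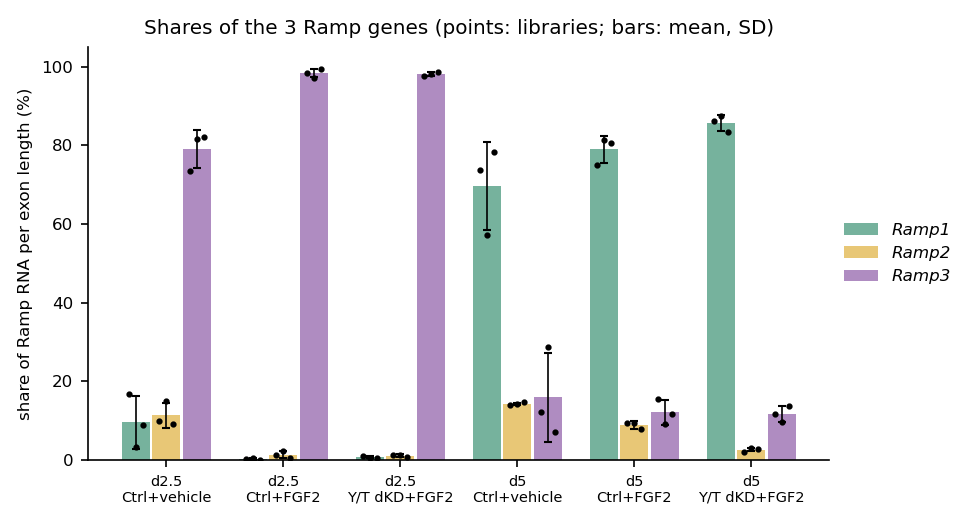
Share of Ramp1, Ramp2 and Ramp3 in the summed CPM per kb of exon of the 3 genes (vertical axis, percent, from 0) in each of the 6 groups; bars are means, error bars the SD, and points the 3 libraries. Ramp3 led in all groups at d2.5 (mean 79.0% to 98.4%) and Ramp1 in all groups at d5 (mean 69.8% to 85.7%).

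Calcrl fell together with Ramp3. From d2.5 to d5 it changed by −0.93 on the log2 scale in Ctrl+vehicle (SE 0.18, edgeR adjusted p = 2.9e-05), by −3.25 in Ctrl+FGF2 (SE 0.12, adjusted p = 3.0e-20) and by −3.81 in dKD (SE 0.14, adjusted p = 1.8e-20). With FGF2 the receptor was thus 9.49-fold lower at d5, at a time when Adm was 1.43-fold higher. Ackr3 fell by 0.84 in Ctrl+FGF2 (SE 0.056, adjusted p = 1.9e-14) and by 0.45 in dKD (SE 0.056, adjusted p = 2.3e-08), but was at 34.7 ± 2.07 and 36.6 ± 1.39 CPM (SD, n = 3) on the 2 days in Ctrl+vehicle (log2 fold change 0.08, 95% interval −0.04 to 0.20, adjusted p = 0.28). Ramp2 rose with time in Ctrl+FGF2 (1.69, SE 0.34, adjusted p = 5.9e-05) and was not called in the other treatments (adjusted p = 0.30 and 0.80). In all, 4, 6 and 5 of the 6 genes were called over time in Ctrl+vehicle, Ctrl+FGF2 and dKD, against 66.4%, 80.0% and 78.4% of 14198 genes. These counts include Adm, which was chosen from the same libraries, and the 3 Ramp genes, which passed the filter through one of the days.

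The change in the FGF2 response between days was itself tested, and 60.9% of all genes passed. Calcrl and Ackr3 had enough counts for the filter on both days, while Ramp1 and Ramp2 entered this fit through d5 and Ramp3 through d2.5, so that the passing of these 3 supports nothing on its own. The log2 fold change for FGF2 was lower at d5 than at d2.5 by 2.31 for Calcrl (SE 0.24, edgeR adjusted p = 1.9e-09), by 1.89 for Ramp3 (SE 0.52, adjusted p = 0.0025) and by 0.92 for Ackr3 (SE 0.084, adjusted p = 9.1e-11). It was higher at d5 by 4.41 for Ramp1 (SE 0.77, adjusted p = 1.2e-05) and by 1.28 for Ramp2 (SE 0.50, adjusted p = 0.028). The Ramp2 call was lost in DESeq2 (adjusted p = 0.15) and without any one of 4 libraries, and that of Ramp3 without Ctrl+vehicle replicate 2 of d5, where its difference was −1.06 (adjusted p = 0.21).

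For the knockdown, Ackr3 alone differed between days, where 20.9% of genes did. Its change was −0.17 at d2.5 and 0.22 at d5, a difference of 0.39 (SE 0.080, edgeR adjusted p = 0.00054). For Calcrl the difference was −0.57 (95% interval −1.04 to −0.09, adjusted p = 0.10), for Ramp2 −1.53 (−2.83 to −0.24, adjusted p = 0.10), for Ramp1 −1.69 (−3.69 to 0.32, adjusted p = 0.27) and for Ramp3 −0.16 (−0.97 to 0.66, adjusted p = 0.84). The wide intervals of the Ramp genes come with their low counts on one of the days. Adm, described only, was 1.49 lower on the log2 scale with the knockdown at d2.5 and 0.94 lower at d5.

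Of the other peptides that act through Calcrl and its Ramp partners, Adm2 was the one with appreciable RNA. Adm2 (intermedin) encodes a second peptide ligand of the same receptors. At d2.5 it was at 2.49, 1.87 and 2.47 CPM in Ctrl+vehicle, 7.96, 9.46 and 10.1 CPM in Ctrl+FGF2, and 6.05, 6.22 and 4.34 CPM in dKD. The groups did not overlap, and Adm2 rose with FGF2 by 2.01 on the log2 scale (SE 0.16, edgeR adjusted p = 2.8e-12) and fell with the knockdown by 0.74 (SE 0.14, adjusted p = 0.00021). At d5 it was filtered out, with summed counts of 31 for Ctrl+vehicle, 6 for Ctrl+FGF2 and 2 for dKD, so that Adm2 was 52.5-fold lower at d5 than at d2.5 in Ctrl+FGF2 (95% counting interval 23.9 to 144) while Adm rose. Crcp, a component linked to calcitonin gene-related peptide signalling, rose with FGF2 at d2.5 by 0.37 (SE 0.073, adjusted p = 5.1e-05). Calca, Calcb, Iapp, Calcr and Gpr182 were not tested on either day, with means of at most 0.0571 CPM.

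Of 7 listed genes that process or break down the peptide, 5 were tested. Over all genes tested, 67.6% and 24.5% were called for FGF2 and the knockdown at d2.5, and 47.2% and 31.7% at d5. With FGF2 at d2.5, 1 of the 5 rose and 4 fell, with a median log2 fold change of −0.44. Mme (neprilysin), a membrane peptidase that degrades adrenomedullin, was at 51.2, 44.3 and 47.2 CPM in Ctrl+vehicle and 9.93, 11.9 and 11.4 CPM in Ctrl+FGF2 (log2 fold change −2.12, SE 0.082, edgeR adjusted p = 2.9e-20). The groups did not overlap, and Pcsk6, a convertase, also fell (−1.09, SE 0.22, adjusted p = 5.1e-05). Pam, the enzyme that amidates the mature peptide, was the gene that rose (0.46, SE 0.030, adjusted p = 1.0e-14) and was at 386 to 690 CPM in all 18 libraries. With the knockdown at d2.5, none rose and 2 fell, namely Furin, a convertase that cleaves precursors (−0.22, SE 0.040, adjusted p = 0.00016), and Ece1, an endothelin-converting peptidase (−0.20, SE 0.056, adjusted p = 0.0079). At d5 1 rose with FGF2, Furin (0.73, SE 0.051, adjusted p = 3.1e-09), and 1 fell, Pcsk6 (−0.74, SE 0.23, adjusted p = 0.014). None rose and 3 fell with the knockdown at d5, Mme by 0.51 (SE 0.042, adjusted p = 5.6e-08), Furin by 0.37 (SE 0.050, adjusted p = 1.7e-05) and Ece1 by 0.21 (SE 0.054, adjusted p = 0.0062).

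Cxcl12, the chemokine that Ackr3 clears, changed with FGF2 in opposite directions on the 2 days. At d2.5 it fell from 31.6, 30.5 and 29.4 CPM in Ctrl+vehicle to 9.58, 8.15 and 9.63 CPM in Ctrl+FGF2 (log2 fold change −1.75, SE 0.084, edgeR adjusted p = 5.5e-18). At d5 it rose from 81.2, 111 and 92.3 CPM to 446, 439 and 424 CPM (log2 fold change 2.21, SE 0.072, adjusted p = 3.2e-13). Cxcr4, the signalling receptor for the same chemokine, was at 1.01 ± 0.472 CPM or less at d2.5 (SD, n = 3). It was not tested there, with 43 counts in Ctrl+vehicle against 7 in Ctrl+FGF2, 6.14-fold lower (95% counting interval 2.74 to 16.2). At d5 it rose with FGF2 by 1.55 (SE 0.24, adjusted p = 4.2e-05) and fell with the knockdown by 2.37 (SE 0.27, adjusted p = 2.8e-06). These d5 values rest on 44, 133 and 25 counts in Ctrl+vehicle, Ctrl+FGF2 and dKD. Mif, a cytokine that can also bind Ackr3, fell with FGF2 and with the knockdown at d2.5, by 0.61 (SE 0.045) and 0.50 (SE 0.049), and rose at d5 by 0.19 (SE 0.064) and 0.40 (SE 0.060). Per kb of exon, mean Ackr3 RNA was above mean Cxcr4 RNA in all 6 groups.

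**Figure D4:**
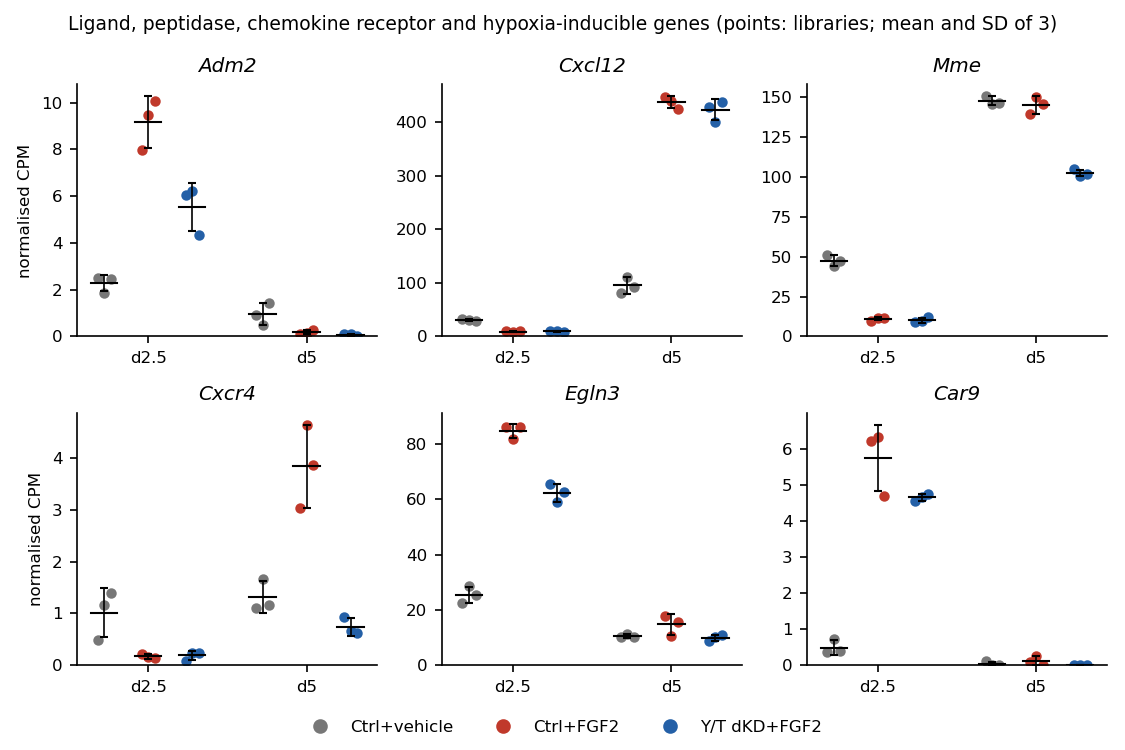
Level in normalised CPM (vertical axes, each from 0) of the ligands Adm2 and Cxcl12, the peptidase Mme, the chemokine receptor Cxcr4 and the hypoxia-inducible genes Egln3 and Car9 in 18 libraries; points are libraries, long lines the mean and bars the SD of 3. Adm2, Egln3 and Car9 were highest in Ctrl+FGF2 at d2.5 (9.17, 84.8 and 5.74 CPM), whereas Cxcl12 and Cxcr4 were highest in Ctrl+FGF2 at d5 (437 and 3.85 CPM).

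Downstream of the receptor, the directions differed by list and contrast. Over all genes tested, 67.6% and 24.5% were called for FGF2 and the knockdown at d2.5, and 47.2% and 31.7% at d5. Of 20 listed genes of Gs, adenylyl cyclase and PKA, 16 were tested, of which 8 rose and 7 fell with FGF2 at d2.5, 1 rose and 1 fell with the knockdown at d2.5, 6 rose and 1 fell with FGF2 at d5, and 5 rose and 3 fell with the knockdown at d5 (medians 0.09, 0.00, 0.11 and −0.01). With FGF2 at d2.5, Prkar2b, a regulatory subunit of PKA, rose by 1.58 on the log2 scale (SE 0.044, edgeR adjusted p = 4.6e-24), and of the adenylyl cyclases Adcy8 rose by 1.33 (SE 0.26) and Adcy9 fell by 0.95 (SE 0.11). With the knockdown at d2.5, Prkacb, a catalytic subunit of PKA, rose by 0.13 (SE 0.040) and Crtc3, a CREB coactivator, fell by 0.26 (SE 0.062). With FGF2 at d5, the coactivator Crtc1 rose by 0.61 (SE 0.072), the PKA subunit Prkar1b rose by 0.52 (SE 0.14) and Adcy7 fell by 0.56 (SE 0.078). With the knockdown at d5, Prkar2a rose by 0.51 (SE 0.041), Adcy7 rose by 0.44 (SE 0.079) and Crtc1 fell by 0.41 (SE 0.070).

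Of 12 listed cAMP-responsive genes, 11 were tested at d2.5, of which 2 rose and 6 fell with FGF2 and none rose and 3 fell with the knockdown (medians −0.37 and −0.29). All 12 were tested at d5, of which 5 rose and 1 fell with FGF2 and 5 rose and 2 fell with the knockdown (medians 0.09 and 0.17). The shares of all genes called were 67.6% and 24.5% for FGF2 and the knockdown at d2.5, and 47.2% and 31.7% at d5. From d2.5 to d5, 8 rose and 3 fell in Ctrl+vehicle, 10 rose and 2 fell in Ctrl+FGF2 and 10 rose and 1 fell in dKD, with medians of 1.41, 1.76 and 2.15 beside −0.02, 0.03 and 0.02 over all genes. Over time 66.4%, 80.0% and 78.4% of all genes were called, in the same order. The phosphodiesterases Pde4d and Pde4b, which break down cAMP, fell with FGF2 at d2.5 by 1.37 (SE 0.089) and 1.17 (SE 0.15), and Pde4b fell again at d5 by 0.97 (SE 0.10) and rose with the knockdown at d5 by 0.74 (SE 0.10, edgeR adjusted p = 2.8e-05). Nr4a1, an immediate early factor, rose with FGF2 on both days (1.10, SE 0.13 and 1.23, SE 0.12), and Rgs2, a regulator of G protein signalling, rose with FGF2 at d5 by 1.43 (SE 0.090). The phosphatase Dusp1 fell with the knockdown at d2.5 by 0.74 (SE 0.17) and rose with it at d5 by 0.60 (SE 0.072). Sik1, a kinase, and Per1, a clock gene, fell with the knockdown at d2.5 by 0.47 (SE 0.083) and 0.43 (SE 0.050), and Nr4a3 rose with it at d5 by 0.61 (SE 0.17).

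Of 7 arrestin and receptor kinase genes, which desensitize such receptors, 6 were tested, and 3 rose and 3 fell with FGF2 at d2.5 while none rose and 3 fell with the knockdown. In these 2 contrasts 67.6% and 24.5% of all genes tested were called. With FGF2 at d2.5, Grk5 fell by 0.79 (SE 0.14), Arrb2 rose by 0.72 (SE 0.11) and Arrb1 fell by 0.71 (SE 0.044). Arrb1, Grk6 and Grk2 fell with the knockdown at d2.5 by 0.28 (SE 0.048), 0.27 (SE 0.044) and 0.14 (SE 0.047). At d5 Grk6 fell with FGF2 by 0.16 (SE 0.055), and Grk5 and Arrb1 fell with the knockdown by 0.79 (SE 0.11) and 0.41 (SE 0.055).

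Adm is a classic hypoxia-inducible gene, so 22 genes of the hypoxia response were counted beside it. Among them were Hif1a, Arnt and Epas1, which encode subunits of the hypoxia-inducible factors themselves. Over all genes tested at d2.5, 67.6% were called for FGF2 and 24.5% for the knockdown. At d2.5, 17 rose and 4 fell with FGF2 of the 21 tested, with a median log2 fold change of 0.80 beside 0.00 over all genes. The 4 that fell were P4ha2 (−0.55, SE 0.045), Arnt (−0.53, SE 0.041), Hif1a (−0.24, SE 0.033) and Epas1 (−1.77, SE 0.35). Epas1 had a mean log2 CPM under 1, so its value rests on few counts. Car9, a carbonic anhydrase, rose by 3.51 (SE 0.25, edgeR adjusted p = 9.2e-14), Ero1l, an oxidase of the endoplasmic reticulum, by 1.88 (SE 0.046, adjusted p = 1.9e-25), and Egln3, a prolyl hydroxylase, by 1.72 (SE 0.061, adjusted p = 2.4e-21). Car9 held 21 counts in Ctrl+vehicle against 245 in Ctrl+FGF2. It passed the filter through the groups where it was high, so its test follows in part from the filter. With the knockdown 1 rose and 9 fell, with a median of −0.19. Pfkfb3, a regulator of glycolysis, fell by 0.84 (SE 0.15, adjusted p = 9.7e-05), Ndrg1, a stress-response gene, by 0.64 (SE 0.042, adjusted p = 2.0e-12) and Egln3 by 0.45 (SE 0.054, adjusted p = 2.5e-07).

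At d5, of 19 genes tested, 3 rose and 10 fell with FGF2 (median −0.23), among them Ndrg1 by −1.29 (SE 0.073, edgeR adjusted p = 2.7e-10), Pfkfb3 by −1.27 (SE 0.11, adjusted p = 7.1e-08) and P4ha2, a collagen prolyl hydroxylase, by −1.12 (SE 0.062, adjusted p = 1.9e-10). Hif1a was also among the genes that fell with FGF2 at d5 (−0.18, SE 0.036). Over all genes tested at d5, 47.2% were called for FGF2 and 31.7% for the knockdown. With the knockdown 3 rose, among them Epas1 at a mean log2 CPM under 1, and 4 fell (median 0.08). Pdk1, a kinase that restrains pyruvate dehydrogenase, fell by 0.74 (SE 0.062), Egln3 fell by 0.57 (SE 0.15) and P4ha1 rose by 0.35 (SE 0.046). Adm was chosen by its own values in these contrasts, so nothing is read from setting it beside the list. Aldoa of the list was not used, since 2 identifiers carry that symbol. Oxygen and cell density were not measured, and their part was not tested.

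Over the 18 libraries, the genes whose log2 CPM followed Adm most closely were Ccdc181, Abca3 and Vps16 (Pearson r = 0.90 each), Sqstm1 (0.89), Bcat2, Ccbe1 and B4galt2 (0.88 each) and Cldn1 (0.88), among 14197 other genes. Cldn1, a tight junction protein, was at 14.7 ± 0.742 CPM in Ctrl+FGF2 and 10.8 ± 1.04 CPM in dKD at d2.5, and at 82.1 ± 3.91 and 24.4 ± 1.63 CPM at d5 (SD, n = 3). Adm's own correlation with the receptor genes was low, between −0.31 for Ramp3 and 0.51 for Ramp1. The receptor genes ran closer to each other: Calcrl with Ramp3 at 0.95, Ackr3 with Ramp3 at 0.82, and Calcrl with Ramp1 at −0.90. Closest to Calcrl were Tcof1, Aff2 and Mthfd1 (0.99 each), to Ramp3 Itga6 and Uqcrfs1 (0.98 each) and Egln3 (0.98), to Ramp1 Klhl38 (0.99), Pitpnc1 and Slc9a3r1 (0.98 each), to Ackr3 Lgals1 and Etv5 (0.98 each), and to Ramp2 Nfs1 (0.90), Anks6 (0.87) and Cat (0.86). These values describe 6 groups of 3 libraries that share day, batch and depth, so a shared step between groups is enough to give a high r.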

How the data were processed

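Bulk poly(A) RNA-seq of O9-1 NC cells was used, with groups taken from the labels. The authors deposited 1 table of raw, unnormalized gene counts per library, laid out as STAR writes them. The submitters' processing notes name FastQC, STAR, Picard, featureCounts and mm10, without versions. Of its strand settings, the one holding 96.04% to 96.6% of the stranded counts was taken. Rows that name no gene (27.0% to 34.4% of a library) did not enter totals or tests. Reads mapping to several places were not counted in this layout, which lowers genes with near-identical copies. Of 55335 identifiers, 55154 matched GENCODE M21 on GRCm38, the source of names, positions and exon lengths.

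Counts were tested with edgeR 4.0.16 (quasi-likelihood, TMM, filterByExpr) in R 4.3.3, with the 9 libraries of a day fitted together for effects within that day, and all 18 for d5 against d2.5 and for differences of effects between days. A gene was called at a p under 0.05 after Benjamini-Hochberg adjustment over all genes tested, the only adjustment used. SEs were derived from the fold change and its F statistic, and the 95% intervals built on them are approximate. DESeq2 1.42.0, other normalizations, filters, strand settings and left-out libraries served as alternatives. The fits were tested on simulated data. Replicates differed beyond sampling noise, and none was counted as a copy of another. The genes, the 13 further gene lists and the alternatives were chosen with earlier results of these data known. Named were the 6 genes in every comparison, both siRNA targets, in the FGF2 and knockdown contrasts of each day up to 3 called genes of each list of ligands, signalling or hypoxia genes with the largest change and a mean log2 CPM of at least 1 (the rule covers the other contrasts too, whose list genes are not named here), the 8 genes most correlated with Adm and the 3 most correlated with each of the others. Markers and genes near 0 were named beside these for their role. Correlations used log2 CPM with a prior count of 2. One listed gene and one correlated gene are not reported here.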

Additional observations from a re-analysis of the deposited data

Results flagged for a closer look

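For 6 results the effect of a treatment differed between the days in the test of the difference itself (edgeR, all 18 libraries, adjusted p under 0.05), a test that 60.9% of all genes passed for FGF2 and 20.9% for the knockdown. For FGF2, the log2 effect at d5 minus that at d2.5 was −2.31 for Calcrl, 4.41 for Ramp1, 1.28 for Ramp2, −1.89 for Ramp3 and −0.92 for Ackr3. For the knockdown it was 0.39 for Ackr3. The Ramp2 call was lost in DESeq2 (adjusted p = 0.15), and the Ramp3 call without Ctrl+vehicle replicate 2 of d5 (adjusted p = 0.21). Ramp1 and Ramp2 had too few counts for the filter at d2.5 and Ramp3 at d5, so these 3 entered the test through the other day. Each day is its own batch in the labels, so a difference between days cannot be told apart from one between batches. Groups of 3 libraries were too small for a check of single outlying libraries.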

How the results depend on the processing

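Of 1232 refits of single genes, 1194 kept their direction and side of the threshold. Adm in the contrasts that chose it had no threshold. There a refit counted as kept if its shift was smaller than the SD of the log2 difference between libraries. Of the receptor genes called for the knockdown at d2.5 (2 in the reported fit), 0 were called by DESeq2 (2 at an unadjusted p under 0.05), and 1 each with unstranded counts, in a fit of all 18 libraries and at an adjusted p under 0.01; leaving out 1 library gave 0 to 2, the 0 being without dKD replicate 3 (2 by edgeR at an unadjusted p under 0.05). Without a filter, 5 rather than 3 were called for knockdown with FGF2 against vehicle at d2.5, since Ramp1 and Ramp2 were then tested. Requiring at least 10 counts in every library left 3 of the 6 genes to test over time, of which 2, 3 and 3 were called in Ctrl+vehicle, Ctrl+FGF2 and dKD (4, 6 and 5 as reported), and left 2 receptor genes for the difference of the FGF2 effect, of which 2 were called (5 as reported). Leaving out 1 library gave 1 to 2 calls for FGF2 at d5, 1 to 3 for the knockdown at d5 (1 without dKD replicate 2) and 1 to 2 for the difference of the knockdown effect (2 without Ctrl+FGF2 replicate 2 of d2.5). Directions turned, each on an uncalled value, for Calcrl with FGF2 at d5 (−0.14 without Ctrl+vehicle replicate 2, range −0.14 to 0.27), Ackr3 over time in Ctrl+vehicle (−0.016 with upper-quartile factors), Ramp2 over time in dKD (−0.053 without replicate 3 of d2.5, −0.088 without replicate 2 of d5, range −0.088 to 0.39) and Ramp3 for the difference of the knockdown effect (0.20 without Ctrl+FGF2 replicate 1 of d5, range −0.44 to 0.20). Adm's log2 fold change without 1 library was 1.98 to 2.28 (FGF2, d2.5), −1.52 to −1.44 (knockdown, d2.5), 0.53 to 0.66 (FGF2, d5) and −1.06 to −0.80 (knockdown, d5). Same-numbered replicates deviated together in no regular way (r −0.15 to 0.33). The highest values were 0.28 and 0.33, for replicates 1 and 2 of Ctrl+vehicle with Ctrl+FGF2 at d5. Groups of 3 cannot settle whether the libraries were paired, and the reported fits left pairing out. With the replicate as a block the calls were 3, 2 and 3 receptor genes at d2.5, 1, 3 and 3 at d5, 4, 6 and 5 of all 6 genes over time, and 5 and 1 for the differences of effects. The cause of the other changes was not tested. By Spearman's rho, 4 of the 8 correlations with Adm fell by over 0.1, the lowest being 0.69 for Sqstm1. Depth limits Ramp1 and Ramp2 at d2.5, Ramp3 at d5, and Ramp2 in dKD at d5.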
